A study of Oncorhynchus kisutch with 206 samples.

Results

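The brains of 6 coho salmon (Oncorhynchus kisutch) caught in the south of the Strait of Georgia in the ocean summer of 2009 were compared with the brains of 12 caught there in the ocean spring of the same year. These 18 fish were all those labelled with this place, year and either season, and the series holds 188 other fish. Each fish was hybridised on 1 array against a reference pooled from all the brain samples, and a value is read here as the log2 ratio of the fish over that pool. Neither the direction nor the base of the logarithm is labelled. The direction, on which every rise and fall rests, is likely rather than known, and log2 could not be told apart from a natural log. A probe entered the comparison when it had a value in at least 3 fish of each season, which 27820 of 43630 probes had.

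Coho salmon hatch in rivers, live there as parr, change into smolts as they leave for the sea, and grow fast in coastal water during their first summer. The brain holds the centres that govern feeding, growth and the response to salinity, and through the pituitary it drives the hormones of smolting and growth. The comparison asks how brain RNA levels differed between the first months at sea and the summer in a single body of water. The files do not pair the probes with genes, so probes are named by their array identifiers, no gene or pathway is described, and the tissue label could not be checked against brain markers.

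All 18 fish came from salt water. The 12 spring fish were all labelled wild, with sex undetermined, and were 9.5 to 12.8 cm in fork length. The 6 summer fish were 14.9 to 17.7 cm long, 4 were wild and 2 (fish 2002 and 2014) came from a hatchery. Summer fish 1884 and 1896 were labelled female and the others male. The mean length was 11.5 ± 1.14 cm (SD, n = 12) in spring and 16.5 ± 1.27 cm (SD, n = 6) in summer, and the lengths did not overlap. Stocks of the east coast of Vancouver Island (labelled ECVI) made up 6 of the spring and 5 of the summer fish. The other spring fish were 4 of Fraser, 1 of Chilliwack_R and 1 of Puget_Sound, and the other summer fish, 2014, was of Fraser. Season, body length and the time of capture therefore cannot be told apart in these groups, and the stock and rearing mix differed as well. Sex was known in summer only, so it could not be balanced. Each fish is its own sample, so the spread includes that between animals.

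The arrays lay on 16 slides, and none held both a spring and a summer fish of the 18. Fall fish shared 5 of the 6 summer slides and 5 of the 10 spring slides. Summer fish of other places shared 2 of the summer slides and 8 of the spring slides. A larger share of values was empty in summer, at 38.0% ± 7.61 (SD, n = 6), than in spring, at 28.3% ± 5.81 (SD, n = 12; exact permutation test, two-sided, p = 0.0076). The array SD was 0.823 ± 0.157 in summer and 0.76 ± 0.103 in spring (SD, n = 6 and 12; exact permutation test, two-sided, p = 0.332). Both tests took no account of slide, although 2 of the spring slides held 2 of the fish each.

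A few fish, 2014, 2129 and 2153, stood with the other season on the first principal component of the 18 fish. Over the 19351 probes with a value in all 18 fish, the first principal component carried 46.3% of the variance. Scores of the summer fish were 33.6, 42.7, 69.6, 87.2 and 129.0 for fish 1876, 1884, 2002, 1896 and 1946, but -58.8 for fish 2014. Spring fish scored between -77.9 and -10.2, except 2129 at 90.7 and 2153 at 58.9, which shared a slide. The mean score was 50.5 ± 63.4 (SD, n = 6) in summer and -25.2 ± 50.9 (SD, n = 12) in spring. The exact permutation test over all 18564 splits took no account of slide. It gave p = 0.0164, two-sided, and an adjusted p of 0.0655 over 4 components, so the difference missed the 0.05 threshold. It passed after quantile normalization (74.9, adjusted p = 0.0333) and after scaling the arrays to 1 median absolute deviation (72.9, adjusted p = 0.0393, both by the exact permutation test). The second component, with 10.1% of the variance, set spring fish 2247 (-120.0) apart, and the third, with 7.2%, set spring fish 2248 (-86.8) apart. The component most like the second also passed under both alternatives, with differences of 25.4 and 28.1 against 13.4.

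**Figure D1:**
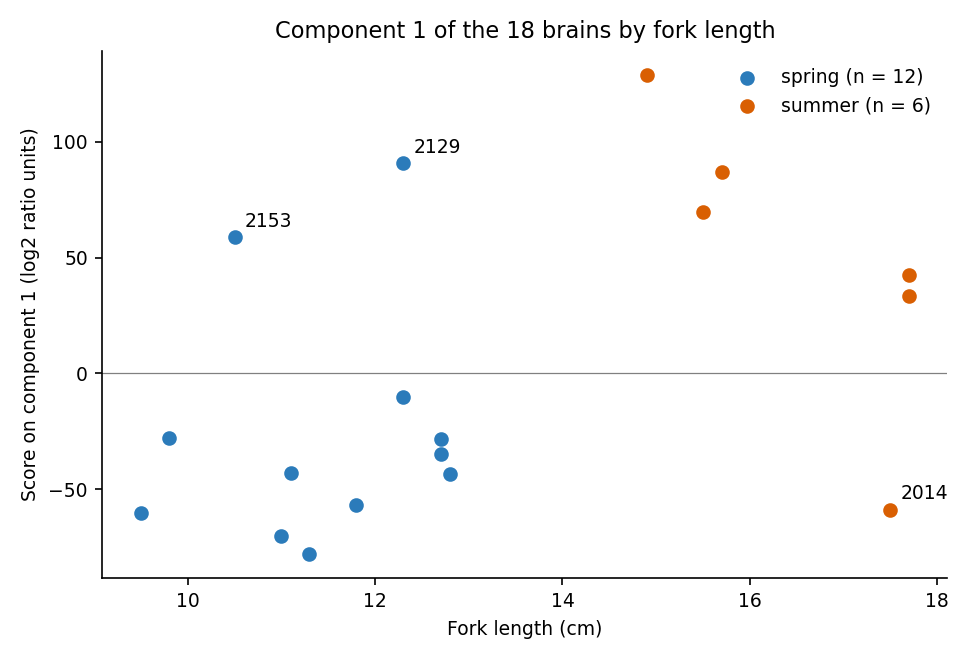
Score of each fish on the first principal component (vertical axis, log2 ratio units) against fork length in cm, with spring fish in blue and summer fish in orange. Summer fish 2014 (-58.8) lies among the spring fish, and spring fish 2129 (90.7) and 2153 (58.9) lie among the summer fish.

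Among the 12 spring fish, of 9.5 to 12.8 cm, no relation of this component with body length was found. So few fish over so narrow a range cannot show that there is none. Pearson's r was 0.137 (n = 12, permutation p = 0.676) and Spearman's rho 0.165 (permutation p = 0.605), with adjusted p-values of 0.676 and 0.934 over 6 relations. When the 2 fish of most extreme length were dropped, r became -0.00071. With the array SD, r was 0.578 (n = 12, permutation p = 0.0467, adjusted p = 0.28) and rho 0.434 (permutation p = 0.161, adjusted p = 0.934), and r was 0.452 without the 2 fish of most extreme SD. With the share of empty values, r was 0.321 (n = 12, permutation p = 0.313, adjusted p = 0.626), rho was 0.0909 (permutation p = 0.782, adjusted p = 0.934), and r was 0.312 without the 2 most extreme fish. The slide mates, which were other fish of the series, were placed on the same axis through 16197 probes with a value in all of them. Their mean score was above 0 on 5 of 6 summer slides and on 3 of 10 spring slides. Over the 16 slides the scores of the fish and of their mates had r = 0.628 (permutation p = 0.00953, adjusted p = 0.0286 over 3 relations) and rho = 0.594 (permutation p = 0.0168, adjusted p = 0.0504), and r was 0.572 without the 2 slides with the most extreme mates. Within the 10 spring slides r was 0.579 (permutation p = 0.0867, adjusted p = 0.13) and rho 0.188 (permutation p = 0.608), and without the 2 most extreme slides r was 0.206. Within the 6 summer slides r was 0.162 (permutation p = 0.768) and rho 0.0857 (permutation p = 0.919), and r was -0.962 over the 4 slides left without the 2 most extreme. The relation thus did not pass the threshold within either season. The mates of 2129 and 2153, both fall fish, had a mean score of 46.2, and those of 2014 had -4.88. The mates of the other 5 summer fish were mostly fall fish, so slide and season of the mates cannot be told apart.

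Between spring and summer, 708 of the 27820 probes (2.54%) passed an adjusted p of 0.05 in limma with slide as a random block. Of these, 328 (1.18%) were higher in summer and 380 (1.37%) were lower. The median absolute change of the called probes was 0.955 on the log2 scale (quartiles 0.782 and 1.23), and the median change over all tested probes was 0.047. In all, 692 of the called probes passed 1.5-fold, 319 of them higher and 373 lower. At an unadjusted p under 0.05 there were 7710 probes. The summer fish lay wholly outside the spring range at 71 of the 19351 probes with all values (0.367%), 33 above and 38 below. Of the 630 called probes with all values, 24 lay above it and 33 below it. They were called on these same values, so nothing is read from those counts.

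The number of called probes depended on single fish and on the model. Leaving out summer fish 1946, 1896, 2002, 1884 or 1876 left 9, 10, 14, 52 or 181 called probes, while leaving out summer fish 2014 gave 6186, with 703 of the 708 among them. Among the spring fish, leaving out 2132, 2134, 2115, 2125, 2239, 2131, 2127 or 2130 left 150, 165, 205, 233, 265, 277, 314 or 384. Leaving out 2247, 2153 or 2129 gave 1083, 1154 or 3364, and leaving out 2248 gave 649. A fit over all arrays of the series with slide as a random block called 67, and with slide as a fixed term it called 0, with 2063 at an unadjusted p under 0.05. With fork length as a term the count was 0 (3282 at an unadjusted p under 0.05), and with stock as a term it was 11. The lengths did not overlap between the seasons, so the fit with length cannot separate length from season well. At probe C229R117 its SE was 2.51 against 1.07 in the main fit, and its change 7 against 5.54. No slide held both seasons of these fish, so a fixed slide term is also hard to separate from season. The comparison thus gave a set of called probes whose size was not stable.

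**Figure D2:**
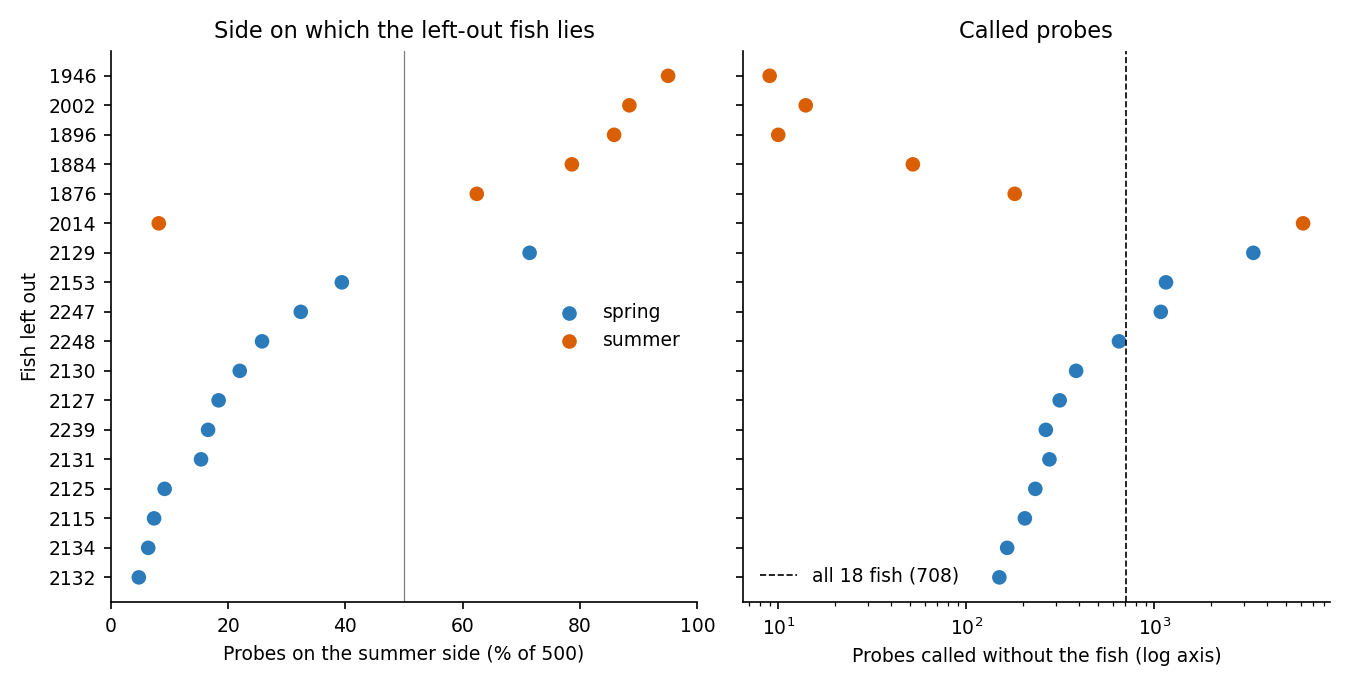
Left, for each fish left out in turn, the percentage of the 500 probes of smallest p in the fit without it at which it lay on the summer side; right, the number of probes called without it (log axis, dashed line at 708). Summer fish 2014 lay on the summer side at 8.2% and spring fish 2129 at 71.4%.

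The side of a left-out fish was read at the 500 probes with the smallest p in the fit without it. Of the summer fish, 5 lay on the summer side at 62.4% to 95.0% of those probes, and 2014 at 8.2%. Of the spring fish, 11 lay there at 4.8% to 39.4%, and 2129 at 71.4%. The plot of left-out fish shows that the fish on the other season's side, 2014 and 2129, were those whose removal raised the count of called probes most.

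The largest rise among called probes with all values was at C229R117. Its log2 ratio in the summer fish was -6.53 in 1876, -0.14 in 1884, 1.40 in 1896, 0.61 in 1946, 0.30 in 2002 and 0.99 in 2014. In the 12 spring fish it ran from -7.54 to -0.32, with a median of -7.06. Summer fish 1876 was thus as low as most spring fish, spring fish 2127 (-0.32) was nearly as high as the other summer fish, and the groups overlapped. The mean was -0.56 ± 2.97 (SD, n = 6) in summer and -6.15 ± 2.05 (SD, n = 12) in spring, a fitted change of 5.54 (SE 1.07, limma adjusted p = 0.0241). It missed the threshold when summer fish 1884, 1896, 1946 or 2002 was left out (adjusted p from 0.0541 to 0.0794).

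Probe C110R043 had the next largest rise and the same pattern. The summer values were -6.92 in 1876, -0.26 in 1884, 0.17 in 1896, -0.33 in 1946, 1.85 in 2002 and -0.05 in 2014. The spring values lay between -8.25 and -0.87 (median -6.95), and 2239 and 2127 were the high spring fish, so the groups overlapped again. The fitted change was 5.06 (SE 1.20, limma adjusted p = 0.0383), and it missed the threshold when summer fish 1884, 1896, 1946 or 2002 (adjusted p from 0.0738 to 0.116) or any of 6 spring fish was left out (0.0532 to 0.0615).

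A small set of probes was high or low together with C229R117. Besides it, 15 of the 19351 probes had a correlation of at least 0.9 with it over the 18 fish, a limit set after the values were seen. C110R043, at 0.889, lay just under that limit. Of the 15, 10 were called higher in summer, beside 1.18% of all tested probes, but they were picked for following a called probe in the same fish, so nothing is read from that count. In the 188 other fish the correlation of these 15 with C229R117 lay between 0.531 and 0.959 (median 0.896), where the median over all probes was -0.0185. These are descriptions over fish that share slides and the reference pool. Across all fish of the series C229R117 was below -5 in 99 and above -2 in 79, with 28 in between.

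Among called probes with all values, the largest fall was at C028R013. Of the 78 called probes with missing values, 1 had a larger fitted fall (-4.44, with 10 spring and 6 summer values). The summer values were -2.63 in 1876, -2.55 in 1884, -2.61 in 1896, -3.06 in 1946, -2.49 in 2002 and -1.02 in 2014. The spring values ran from -1.48 to 1.68 with a median of 0.74. The summer fish other than 2014 lay below every spring fish, while 2014 lay above spring fish 2129 (-1.18) and 2132 (-1.48). The mean was -2.39 ± 0.70 (SD, n = 6) in summer and 0.39 ± 1.00 (SD, n = 12) in spring, a fitted change of -2.81 (SE 0.419, limma adjusted p = 0.0137). It passed the threshold under 33 of 36 alternative settings, including each fit that left out 1 fish, and missed it with fork length as a term (adjusted p = 0.41) and in both fits with slide as a fixed term (adjusted p = 0.126 and 0.0816).

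At C134R083, the next largest fall among called probes with all values, the summer values were -1.41 in 1876, -2.66 in 1884, -2.44 in 1896, -3.95 in 1946, -2.76 in 2002 and 0.16 in 2014. The spring values ran from -1.90 to 2.23 with a median of -0.02. Fish 2014 was again within the spring range, and spring fish 2129, at -1.90, was the lowest of its group. The fitted change was -2.18 (SE 0.505, limma adjusted p = 0.0361), and it missed the threshold when any summer fish other than 2014 (adjusted p from 0.0521 to 0.122) or any of 5 spring fish was left out (0.0511 to 0.0605). The 4 probes were named for the size of their change among called probes, so the sizes are at the high end of what the comparison gave.

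**Figure D3:**
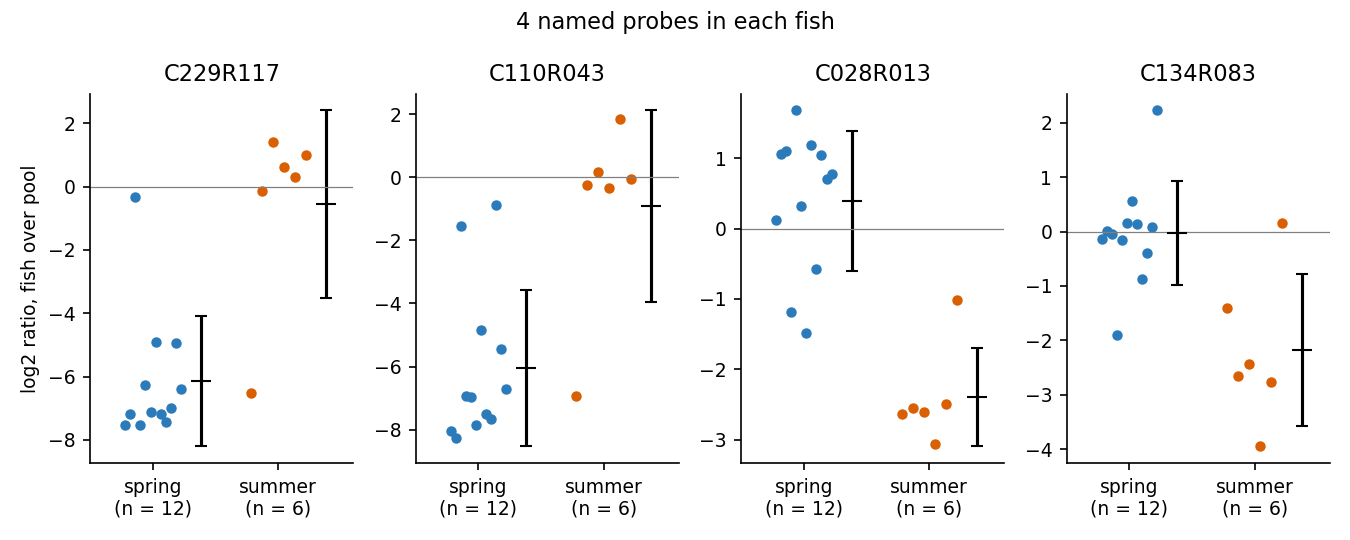
Log2 ratio of fish over pool of the 2 largest rises and the 2 largest falls among called probes with all values, in each of 12 spring fish (blue) and 6 summer fish (orange), with the mean and SD of each group beside the points. Summer fish 1876 is low at both rising probes (-6.53 and -6.92) and summer fish 2014 is the highest of its group at both falling probes (-1.02 and 0.16).

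Whether a probe had a value at all was compared as well. Of 12098 probes with a value on 3 to 15 of the arrays, 0 (0%) passed the adjusted p of 0.05 in Fisher's exact test, two-sided, and the smallest adjusted p was 0.178. At an unadjusted p under 0.05 there were 1773 probes, and 1764 of them had values less often in summer, beside the larger share of empty values on the summer arrays.

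Within the spring fish, neither body length nor stock gave called probes. In limma, the slope on fork length passed the threshold at 0 of 29522 probes (0%), with 885 at an unadjusted p under 0.05. The comparison of the 6 ECVI fish with the 6 of other stocks called 0 of 30518 (0%), with 812 at an unadjusted p under 0.05. At C028R013 the slope was -0.071 per cm (SE 0.234). At C229R117 it was 0.187 per cm (SE 0.468), at C110R043 -0.725 (SE 0.536) and at C134R083 -0.284 (SE 0.21). These intervals are wide beside the lengths covered, and they do not show that length has no relation to the levels. The stock comparison of 6 with 6 fish does not show that for stock either. Its fitted ECVI differences were 0.188 at C028R013, 0.297 at C229R117, -1.037 at C110R043 and -0.641 at C134R083. With stock as a term, the spring to summer fit called 11 probes. The slope within spring was above 0 for 63.4% of the probes called higher in summer and 38.7% of those called lower. For all tested probes it was 46.8%. The called probes were chosen with the same spring fish, so these shares are a description only.

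The south summer fish were also set against 29 summer fish of the northern and middle Strait of the same year, a comparison that shares the 6 summer fish. Of the 29, 13 were labelled wild and the others hatchery, and their stocks were Fraser, S_Main and ECVI. Most of the 29 were of Fraser or S_Main, while 5 of the 6 south fish were ECVI. Their lengths reached both below and above those of the 6. Place, stock and rearing mix therefore cannot be told apart well in this comparison. Of 27850 probes, 1916 (6.88%) passed the threshold, 395 higher and 1521 lower in the south. C028R013 was lower in the south by a fitted -1.13 (limma adjusted p = 0.0373), as was C134R083, by -1.36 (adjusted p = 0.0316). C229R117 differed by 1.47 (adjusted p = 0.559) and C110R043 by 1.85 (adjusted p = 0.427). All of these probes were named for their change in the same 6 summer fish, so their differences here are descriptions only. When the 35 summer fish of both places were set against the 12 spring fish, 401 probes were called, 125 of them among the 708. The 708 were 2.54% of the probes tested in the 18 fish. This fit holds all 18 of those fish, so nothing is read from the overlap. With slide as a fixed term 1 was called, which was not among the 708.

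A comparison of other fish addressed a similar step, from fresh water to the ocean summer. In the 29 northern and middle Strait summer fish against 35 river smolts of 2009, none of which were among the 18, 806 of 35778 probes (2.25%) were higher in summer and 693 (1.94%) were lower. The smolts came from the Salmon, Capilano, Chehalis and Puntledge rivers, and 12 of them were labelled wild and the others hatchery. Some fish of both groups shared slides with the 18. River smolts were on 4 of the spring slides and 1 of the summer slides. Of the 328 probes called higher in the south, 44 (13.4%) were called higher there and 1 was called lower, where 2.75% of the tested probes were called higher. Of the 380 called lower, 17 (4.47%) were called lower there and 1 was called higher, where 2.41% of the tested probes were called lower. The change was above 0 for 266 (81.1%) of the 328 and for 100 (26.3%) of the 380, beside 50.2% of all tested probes. The median change in the other fish was 0.229 for the first list and -0.173 for the second, against 0.942 and -0.973 in the south. Smolts and spring fish differ in more than season, rearing and stock were mixed, and slides were shared, so the comparisons are set side by side only. C028R013 fell by 1.27 there (SE 0.253, limma adjusted p = 0.00113), and C229R117 rose by 2.27 (SE 0.69, limma adjusted p = 0.0423). Changes of 1.42 at C110R043 and -0.46 at C134R083 did not pass (adjusted p = 0.271 and 0.261).

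The 708 probes were then read in every fish of the series, as the share at which a fish lay nearer to the summer than to the spring mean. The probes were chosen by the test on the 18 fish, so their shares there are a description only: the median was 95.5% in summer (37.1% to 99.7%) and 6.87% in spring (1.71% to 52.8%). Among the other fish it was highest in the Strait in winter 2009, with a median of 81.1% in 3 fish (18.4% to 83.7%), and in the south in fall 2009, with 78.1% in 22 fish (49.0% to 93.5%). The northern and middle Strait had 73.5% in fall 2009 (21 fish, 38.8% to 95.7%) but 35.0% in summer 2009 (29 fish, 22.2% to 88.3%). In the year before, the order of these medians there was reversed. They were 39.7% in fall (11 fish, 24.0% to 72.5%) and 69.2% in summer (5 fish, 9.33% to 85.7%). South summer fish of that earlier year had 58.7% (3 fish, 11.0% to 85.0%). River smolts of 2009 had 26.0% (35 fish, 8.06% to 83.5%), and west coast summer fish of 2009 had 19.5% (8 fish, 5.66% to 33.5%). The ranges of most groups overlapped, and the west coast summer fish lay wholly below the south fall fish.

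**Figure D4:**
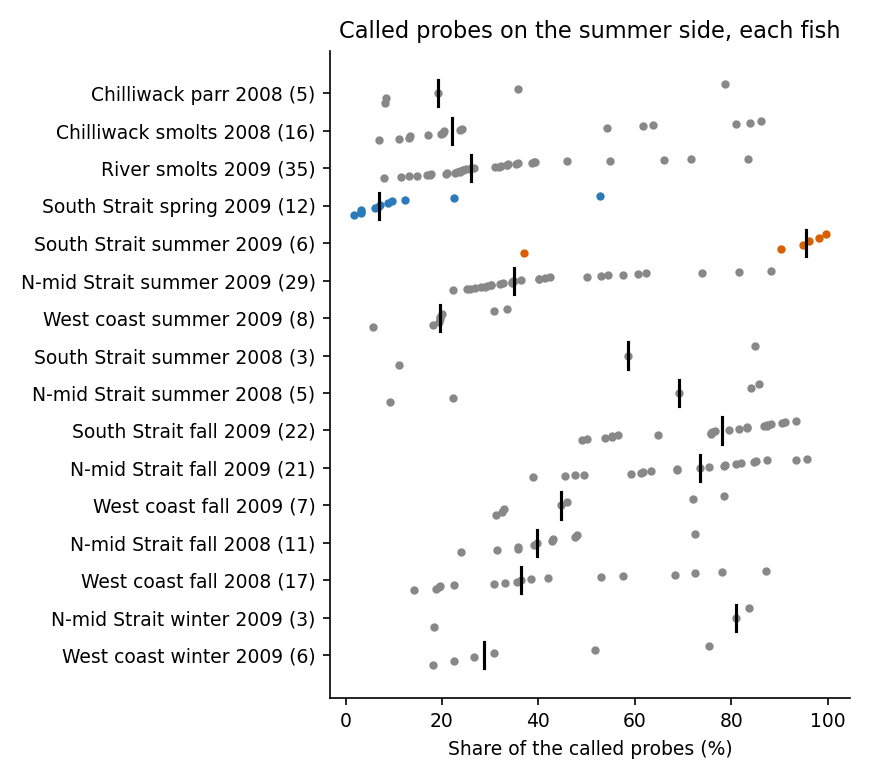
Percentage of the called probes at which each fish lies nearer to the south summer than to the south spring mean, by group with the number of fish in brackets; bars are medians. The probes were chosen by the test on the south spring (blue, median 6.87%) and south summer fish (orange, median 95.5%). The grey groups entered that test only through the slide correlation, which was estimated over the whole series.

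The levels of the named probes in the other groups followed different orders. C028R013 averaged 0.04 ± 1.23 (SD, n = 35) in river smolts of 2009 and 0.39 ± 1.00 (SD, n = 12) in south spring fish. In the northern and middle Strait in summer 2009 it averaged -1.26 ± 0.86 (SD, n = 29), and in the south in fall 2009 -1.76 ± 0.69 (SD, n = 22). The west coast averaged -0.74 ± 1.09 (SD, n = 8) in summer and 0.15 ± 0.86 (SD, n = 7) in fall 2009. The south summer mean, -2.39, was the lowest of all groups plotted. C028R013 was named for its fall in these same fish, so that rank is a description only. The next lowest mean was that of the south in fall 2009, and the ranges of these groups, -3.06 to -1.02 and -2.64 to -0.18, overlapped.

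C229R117 had fish on both sides of -3, a line chosen after the values were seen, in every group except the west coast summer fish of 2009. It was above this line in 5 of 6 south summer fish and 1 of 12 south spring fish. It was above it in 17 of 29 northern and middle Strait summer fish, 12 of 22 south fall fish, 9 of 35 river smolts and 0 of 8 west coast summer fish of 2009, and 15 fish of the whole series lay within 1 of the line. At this line the seasons differed in how many fish lay above it. With 5 of 6 summer and 1 of 12 spring fish above it, a shift among the high or among the low fish could not be assessed. Whether the fish fall into separate high and low sets was not tested.

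**Figure D5:**
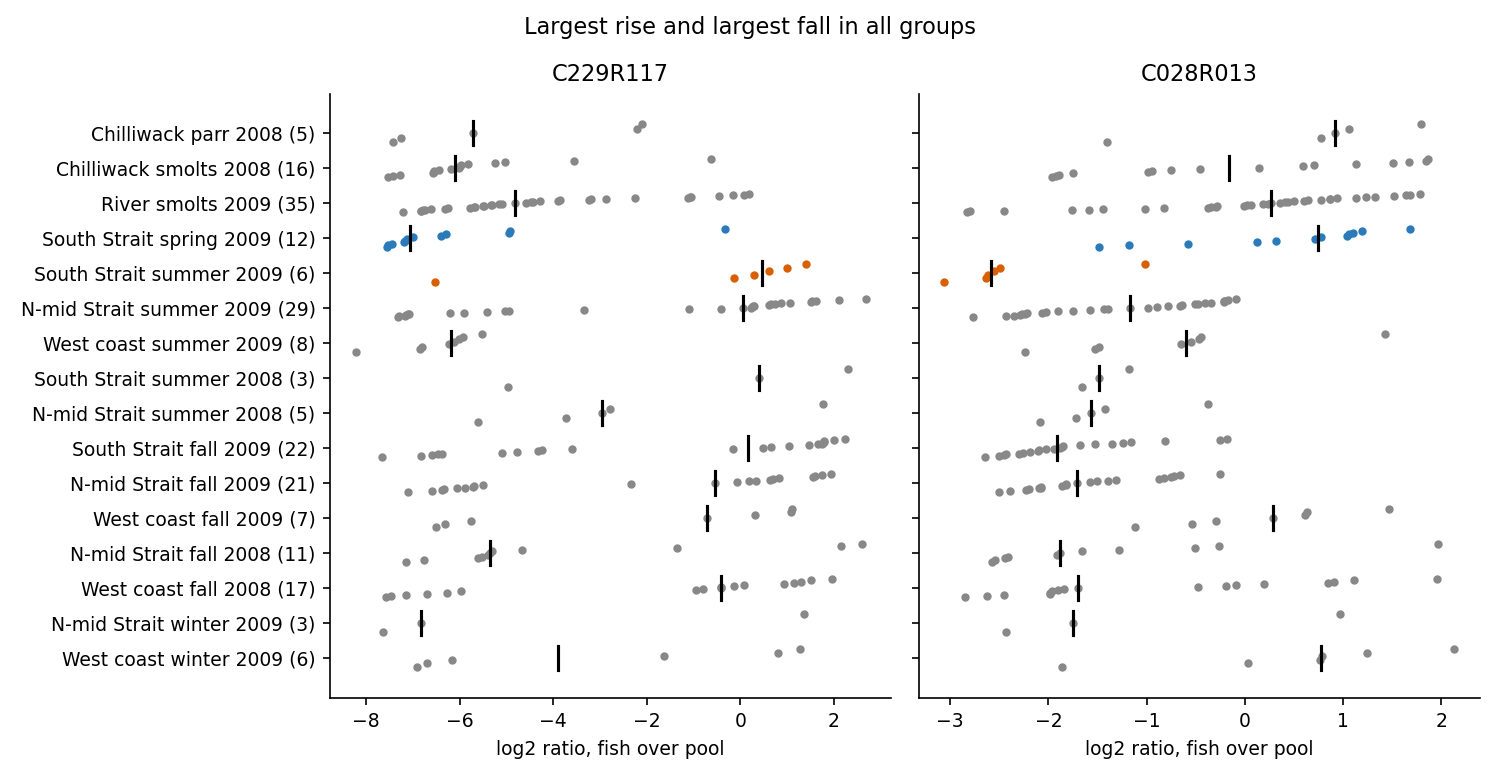
Log2 ratio of fish over pool of C229R117 (left) and C028R013 (right) in each fish, by group with the number of fish in brackets; bars are medians, blue is south spring and orange south summer 2009. C229R117 has fish on both sides of -3, a line chosen after the values were seen, in most groups. C028R013, which was named for its fall in the south summer fish, has its lowest mean there (-2.39).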

How the data were processed

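Per the labels' protocols, brain RNA was amplified and coupled to 1 Alexa dye, and a pool of all brain samples to another, with no dye swap. The deposited values, read here as log2 ratios, were made by the authors from these scans, and a second table with the same values was not used. How spots were extracted, normalized and left empty is not given in the sources used here. No label states the log base or direction. Read as log2 of fish over pool, the log2 mean of back-transformed values stayed between 0.06 and 0.21 over 10 variance classes. For pool over fish it ran from -0.07 to 1.16, so fish over pool is the likely direction. A natural log of fish over pool (0.14 to 0.27) could not be told apart from log2 in this way and would enlarge folds. Pairs of the 18 arrays correlated from -0.295 to 0.832.

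Tests used limma 3.58.1 in R 4.3.3 with slide as a random block (consensus correlation 0.141 over the whole series) and Benjamini-Hochberg adjustment. The script was run on simulated normal values with the same slide correlation. This run cannot show how the calls depend on that correlation or on single fish. Exact and permutation tests (100000 draws) used scipy and numpy. Named probes are the 2 largest rises and 2 largest falls among called probes with all values. The groups, lists and named-probe rule were chosen with earlier results of these data known. Array number limits the precision.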

Additional observations from a re-analysis of the deposited data

Results flagged for a closer look

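Among the 11 measures examined in the 6 summer fish, 3 had a single fish past the limit of Dixon's test. For a single measure with normally distributed values, chance gives such a fish in about 5% of groups. The measures are not independent, and C229R117 had fish both above and below -3 in most groups. No chance rate is therefore given for 3 of 11. Summer fish 1876 was far below the others at C229R117 (-6.53) and at C110R043 (-6.92), probes that move together. Summer fish 2014 was far above the others at C028R013 (-1.02).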

How the results depend on the processing

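Of the spring to summer result, 708 called probes, the count stayed within 1.5 times without a slide term (614), after quantile normalization (1018), after scaling arrays to 1 median absolute deviation (784) and with at least 5 values a side (1002). It was 210 with the slide correlation estimated in the 18 fish (0.764), 67 in a fit over all arrays with slide as a random block, 0 with slide fixed, 41 with 1 fish per slide, 11 with stock as a term and 0 with fork length as a term. It was 10796 with array weights, 1104 with a value on all 18 arrays, 4151 in wild fish, 1770 in ECVI fish and 401 with 35 Strait summer fish. Both the wild and the ECVI subsets leave out fish 2014, whose removal alone gave 6186. The wild subset also leaves out summer fish 2002, whose removal alone gave 14. The ECVI subset also leaves out the spring fish of other stocks, whose single removals gave 150 to 1154. In settings added after seeing the data it was 1 with those 35 fish and slide fixed, 5652 without the slide of 2129 and 2153, and 9592 without that slide and 2014. Leaving out 1 fish gave 9 to 6186 (summer) and 150 to 3364 (spring). The share of higher calls was 46.3% in the main setting, 77.6% in the fit over all arrays and 76.1% with the 35 fish. None of the 4 named probes changed sign; C028R013, C229R117, C134R083 and C110R043 kept the call in 33, 25, 19 and 18 of 36 settings. South against northern-mid Strait gave 1028 instead of 1916 after quantile normalization. Summer against smolts gave 2438 instead of 1499 after quantile normalization and 178 in wild fish. The first component's difference was 74.9 after quantile normalization and 72.9 after scaling, both past the threshold, against 75.7; the component most like the second passed as well (25.4 and 28.1 against 13.4). The cause of these shifts was not tested. No paired analysis was possible because fish numbers are unique to each fish. Empty cells, 6 summer arrays and the missing spring and summer fish on shared slides limit what can be separated.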
